A study of Mus musculus with 6 samples.

Results

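The 7 genes described here encode the families of the proteins joined in the leukemia fusion AE9a, and their common partner. They are the Runx transcription factor genes Runx1, Runx2 and Runx3, the partner gene Cbfb, and the ETO family genes Runx1t1, Cbfa2t2 and Cbfa2t3. They were chosen by symbol from a table of 55421 mouse genes, and all 7 passed the filter on low counts, as did 18375 genes in all. The libraries were made from leukemia cells of mouse bone marrow on the C57BL/6 strain. In 3 libraries the cells were AE9a-Ddit4+/+ (wild-type Ddit4), and in 3 they were AE9a-Ddit4-/- (Ddit4 knockout). Cells of both groups carried AE9a, brought by a retrovirus with a GFP marker into c-Kit+ bone marrow cells of donors aged 6 to 8 weeks, and leukemia arose in irradiated recipients. GFP+ leukemia cells of each genotype were then given to irradiated recipients in equal numbers, and the labels name IMDM with 10% FBS as the medium of the cells. The promoter that drove AE9a and the age of the mice at harvest are not given in the sources used here. Neither is it stated whether GFP+ cells were sorted before the RNA was taken. The cells came from bone marrow of transplanted mice, and the n that the study gives for each group equals its number of libraries, so a library may stand for a mouse. Whether it does, and whether those mice carried separate primary leukemias, is not stated. In the study's primary transplantation, fewer recipients of knockout cells developed leukemia than there are knockout libraries here. Knockout libraries may therefore share a primary leukemia. The p-values measure the spread between these libraries, which may be technical.

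Runx proteins bind DNA through their Runt domain, and Cbfb is the non-DNA-binding subunit that stabilizes this contact. Runx1 is required for blood stem cells to arise and for megakaryocytes and lymphocytes to mature, Runx2 is the master factor of osteoblasts, and Runx3 acts in cytotoxic T cells and natural killer cells. The ETO proteins bind no DNA sequence of their own and bring corepressors and histone deacetylases to the factors that they contact. In the translocation of acute myeloid leukemia, AML1-ETO joins the Runt domain of RUNX1 to nearly the whole of ETO, the product of RUNX1T1. AE9a is a splice form of it that lacks the C-terminal part of ETO. The species of the AE9a cDNA is not given in the sources used here. Reads from AE9a that aligned to the mouse genome would be counted for Runx1 and Runx1t1, so transgene and endogenous transcripts of these genes cannot be told apart in a count per gene.

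The kinship of the Runx genes can be read in their DNA. A run of 18 bases is shared by the distal promoter regions of Runx1, Runx2 and Runx3, and it is shown here because it holds the 6-letter Runx core motif. The 30-base windows below come from the RefSeq start sites on GRCm38.p6, are written 5′ to 3′ on the strand of the gene, and carry the shared run in capitals. Within the run the motif TGTGGT appears on the opposite strand, as ACCACA, 2 times.
Runx1, chr16:92826025-92826054, minus strand: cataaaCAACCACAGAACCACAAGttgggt
Runx2, chr17:44814583-44814612, minus strand: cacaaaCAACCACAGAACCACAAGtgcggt
Runx3, chr4:135120503-135120532, plus strand: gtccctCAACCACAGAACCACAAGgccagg
Counting from the start site, itself included, the first base of the run was base 27 in Runx1 and base 22 in Runx2. In Runx3 it lay 136 bases before the start site. Of 32851 RefSeq promoter windows of 300 bases, 4 held the whole run on either strand. They belonged to the 3 Runx genes and to Gm16225, a noncoding gene beside Runx3 that reached at most 5 counts in a library.

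On either strand, TGTGGT occurred 2 times in the 300-base distal window of Runx1, 3 times in that of Runx2 and 2 times in that of Runx3. At least 1 copy was found in 16.8% of all windows and at least 2 copies in 1.81%. No copy was found in the windows of Cbfb, Cbfa2t2 and Cbfa2t3, nor in the second, proximal windows of Runx1 and Runx3. Runx1t1 had no entry among the promoters, so 6 of the 7 genes were matched. These matches describe letters only.

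Runs of identical bases between the coding sequences bear on whether a read can be given to 1 of the genes. Identity over the rest of the coding sequences was not measured. The longest run of identical bases between any pair is printed here for each family, from GENCODE transcripts on GRCm38. Runx1 and Runx3 shared a run of 38 bases.
Runx1 and Runx3: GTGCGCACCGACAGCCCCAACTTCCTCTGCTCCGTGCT
Within the ETO family the longest was a run of 29 bases of Runx1t1 and Cbfa2t3.
Runx1t1 and Cbfa2t3: AACTGCATCATGGACATGGTGGAGAAGAC
For the other pairs the longest run was 19 to 26 bases. Cbfa2t2 has a processed pseudogene on chromosome 5, Cbfa2t2-ps1, which shares a run of 392 bases with it and reached 49 to 87 counts per library, so Cbfa2t2 values carry that uncertainty.

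Runx1t1, Runx2 and Runx3 rose in the knockout leukemia, and the other 4 genes did not pass the test. Runx1t1 rose 11.7-fold, Runx2 rose 4.55-fold and Runx3 rose 1.93-fold. Cbfb and Cbfa2t2 lay lower in every knockout library than in every wild-type library, without passing the test, and Runx1 and Cbfa2t3 overlapped between the groups. The test was edgeR's quasi-likelihood F-test with Benjamini-Hochberg adjustment over all 18375 genes, with adjusted p below 0.05 as the threshold. By this rule 30.1% of all genes differed, 19.4% being higher and 10.7% lower in the knockout. Among the 7 genes 3 were higher (42.9%) and 0 lower. The groups did not overlap for 5 of the 7 genes, whereas this held for 50.1% of all genes tested. The median log2 fold change of the 7 genes was 0.53, beside 0.04 for all genes tested.

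**Figure D1:**
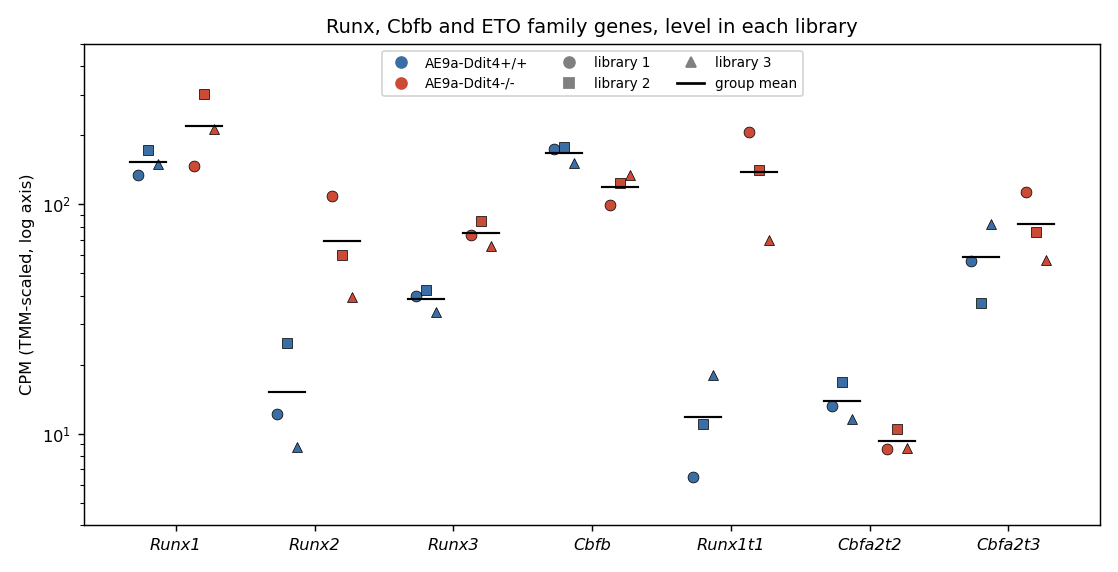
The vertical axis gives CPM (counts scaled by TMM to a library total of 1000000) on a log scale for each of the 7 genes, with 1 point per library, blue for AE9a-Ddit4+/+ and red for AE9a-Ddit4-/-, the marker shape giving the library number and the black line the group mean. The groups stand far apart for Runx1t1 (6.47 to 18.1 against 69.9 to 206 CPM), and Runx1 and Cbfa2t3 overlap between the groups.

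Some facts of the whole series bear on these values. The libraries held 62141558 to 72717681 counts. Ddit4, the targeted gene, lay at 161 to 342 CPM in the wild type and 77.7 to 85.9 CPM in the knockout. The log2 fold change was -1.56 (adjusted p = 0.00635, edgeR), so Ddit4 RNA was lower but present in the knockout libraries. RNA does not measure protein, and the study's western blot found no DDIT4 protein in AE9a-Ddit4-/- leukemia cells. Which part of the gene the allele lacks is not given in the sources used here. The correlation of log2 CPM across genes was 0.951 to 0.965 within groups and 0.791 to 0.846 between them. Mitochondrially encoded genes took 5.03 to 7.90% of the counts in the wild type and 11.3 to 16.4% in the knockout. The Y-linked gene Ddx3y stood at 88.2 to 125 CPM in the knockout and at most 0.0774 CPM in the wild type. The X-linked transcript Xist lay at 566 to 1032 CPM in the wild type. In the knockout it was lower, at 20.3 to 129 CPM, but present beside Ddx3y in each library. The study names female C57BL/6 recipients for several of its transplantations, and the sex of the Ddit4 knockout donors is not given in the sources used here. The sex of the cells and the genotype cannot be told apart, and whether knockout libraries mix cells of both sexes, or of donor and recipient, was not tested. Markers of blood lineages moved as well: all 6 progenitor markers were higher (summed level of 237 to 375 CPM in the wild type and 1608 to 2055 CPM in the knockout), 9 of 10 erythroid and 5 of 9 neutrophil markers were lower (the latter summing to 6824 to 11074 and 1528 to 4722 CPM), and 6 of 8 tested megakaryocyte and platelet markers were higher and 1 lower in the knockout. In bulk RNA, fewer cells of a type and less RNA per cell cannot be told apart.

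Runx1 (GRCm38, chr16:92601466-92826149, minus strand) gives the fusion its DNA-binding part. Its level was 134, 173 and 150 CPM in wild-type libraries 1 to 3, and 146, 302 and 213 CPM in knockout libraries 1 to 3. Knockout library 1 lay inside the wild-type range, and knockout library 3 and knockout library 2 lay above it. The means were 152 ± 19.7 and 220 ± 78.2 CPM (SD, n = 3), and the log2 fold change was 0.53 (SE 0.28, 95% interval -0.11 to 1.18, adjusted p = 0.186, edgeR). Without knockout library 2 the log2 fold change was 0.20. The interval includes both no difference and a rise of 1 on the log2 scale. The well-expressed genes of chromosome 16 had a median log2 fold change of 0.25, while the median over all well-expressed genes was -0.17 (average log2 CPM above 4). Gm26626, an antisense gene over Runx1 exons, reached at most 79 counts.

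Runx2 (chr17:44495987-44814797, minus strand) lay low in the wild type, at 12.2, 24.7 and 8.74 CPM. In the knockout it stood at 108, 60.1 and 39.4 CPM. Every knockout library exceeded every wild-type library, and knockout library 1 was the highest. The mean rose from 15.2 ± 8.41 to 69.3 ± 35.4 CPM (SD, n = 3), a log2 fold change of 2.19 (SE 0.50, 95% interval 1.01 to 3.36, adjusted p = 0.0158, edgeR). This call rested on single libraries: the adjusted p was 0.0585 without wild-type library 1 and 0.0509 without knockout library 1, with log2 fold changes of 2.05 and 1.71. Supt3, which overlaps Runx2 on the opposite strand without sharing exons, did not pass the test (log2 fold change -0.67, adjusted p = 0.419), and the antisense gene Runx2os1, which overlaps Runx2 exons, reached at most 35 counts.

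Because Runx2 is a bone gene, markers of stroma and osteoblasts were read beside it. Of the 9 markers, 7 were tested and 4 of these were higher. Their summed level was 4.32 to 7.96 CPM in the wild type and 157 to 183 CPM in the knockout. Most of that sum was Pdgfrb, a growth factor receptor of mesenchymal cells, at 138 to 162 CPM in the knockout. Bglap, which encodes osteocalcin, was at or near 0 in all 6 libraries, with at most 0.0589 CPM, and Sp7, the osteoblast factor downstream of Runx2, was at 0 in the wild type and 0.329 to 1.25 CPM in the knockout. Plasmacytoid dendritic cells also use Runx2: of their 6 markers 1, Tcf4, was higher, and the sum was 32.5 to 62.5 CPM in the wild type and 87.9 to 123 CPM in the knockout. Without Tcf4 the other 5 markers summed to 31.1 to 58.4 CPM and 27.7 to 58.5 CPM, and Siglech lay at 0.340 to 1.55 CPM in the wild type and 0 to 1.32 CPM in the knockout. The part of these cell types in the Runx2 result was not tested.

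Runx3 (chr4:135120652-135177990, plus strand) had the tightest libraries of the genes that rose. It stood at 39.7, 42.3 and 33.8 CPM in the wild type and at 73.3, 84.6 and 66.0 CPM in the knockout. The groups were clear of each other. The means were 38.6 ± 4.37 and 74.6 ± 9.41 CPM (SD, n = 3), with a log2 fold change of 0.95 (SE 0.19, 95% interval 0.50 to 1.40, adjusted p = 0.00960, edgeR). The well-expressed genes of chromosome 4 had a median of -0.32.

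Runx3 serves T and natural killer cells, so their markers were read beside it. Of 11 markers, 10 were tested and 9 of these were higher in the knockout. The summed level was 10.9 to 48.5 CPM in the wild type and 86.3 to 120 CPM in the knockout. The largest part of the sum was Nkg7, at 9.31 to 47.2 CPM and 38.1 to 61.0 CPM. Its groups overlapped and it did not pass (adjusted p = 0.177, edgeR). Trac, the constant part of the T cell receptor alpha chain, was at 0 in the wild type and at 3.61 to 8.08 CPM in the knockout, and Cd3e rose from at most 0.103 CPM to 0.609 to 5.77 CPM. Of the NK receptor genes, Klrb1c was at 0 in the wild type and at 2.83, 8.63 and 4.27 CPM in knockout libraries 1 to 3 (adjusted p = 0.00189, edgeR), while Ncr1 was at 0 and at most 0.122 CPM. Knockout library 2, which had the highest Runx3, had the highest Klrb1c of the knockout libraries. It also had the lowest Cd3d, Cd3e, Cd3g, Cd2, Cd4, Cd8a, Lck and Trac of that group. The part of these cells in the Runx3 result was not tested.

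Cbfb (chr8:105170674-105217989, plus strand) was 175, 177 and 151 CPM in the wild type and 99.7, 124 and 135 CPM in the knockout. The knockout values were all lower than the lowest wild-type value, at means of 119 ± 17.9 and 168 ± 14.5 CPM (SD, n = 3). The log2 fold change was -0.49 (SE 0.19, 95% interval -0.92 to -0.06, adjusted p = 0.0839, edgeR), which missed the threshold. Before adjustment the value from edgeR was 0.0310. An unadjusted p under 0.05 was reached by 42.4% of all genes tested. Well-expressed genes of chromosome 8 had a median of -0.27.

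**Figure D2:**
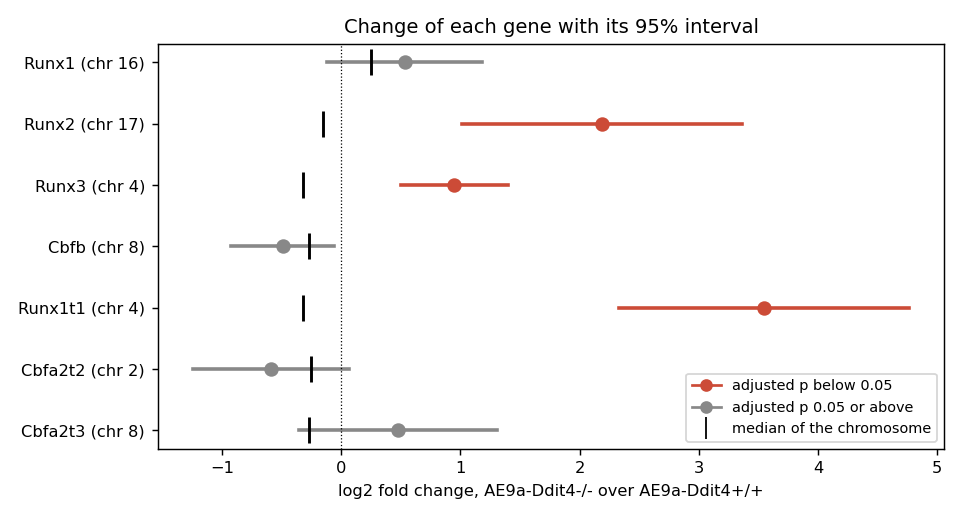
The horizontal axis gives the log2 fold change of the knockout over the wild type, with the 95% interval from edgeR for each gene, in red where the adjusted p was below 0.05, and a black tick for the median of the well-expressed genes on the same chromosome. The intervals of Runx1t1 (2.33 to 4.76), Runx2 (1.01 to 3.36) and Runx3 (0.50 to 1.40) lie above 0 and above their chromosome medians.

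Runx1t1 (chr4:13743436-13893649, plus strand), which encodes ETO, changed most among the 7 genes. Its counts were 409, 751 and 1167 in the wild type, or 6.47, 11.1 and 18.1 CPM. In the knockout they were 12802, 8553 and 5138, or 206, 141 and 69.9 CPM. The lowest knockout library lay well above the highest wild-type library, and the knockout libraries themselves were widely spread. The means were 11.9 ± 5.83 and 139 ± 67.9 CPM (SD, n = 3), a log2 fold change of 3.55 (SE 0.52, 95% interval 2.33 to 4.76, adjusted p = 0.00295, edgeR). It stayed past the threshold with each library left out, at 3.15 to 3.98. Of the 5 tested genes within 1 Mb of it, 0 passed the threshold in either direction, with log2 fold changes from -0.94 (Gm11826) to 0.16 (Pip4p2). Over all genes tested 30.1% passed, so 5 genes are few to read from. Within 1 Mb of Runx2, 6 of 24 tested genes were higher and 2 lower, and within 1 Mb of Runx3, 13 of 45 were higher and 7 lower.

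Cbfa2t2 (chr2:154436481-154539356, plus strand) encodes the ETO relative MTGR1 and was the lowest gene of its family in the knockout. It stood at 13.2, 16.8 and 11.6 CPM in the wild type and 8.59, 10.5 and 8.67 CPM in the knockout. The knockout libraries lay below the wild-type libraries by a narrow gap. The log2 fold change was -0.59 (SE 0.28, 95% interval -1.24 to 0.07, adjusted p = 0.153, edgeR), beside a median of -0.25 for the well-expressed genes of chromosome 2.

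Cbfa2t3 (chr8:122625141-122699109, minus strand) encodes ETO2, which works in erythroid and megakaryocyte precursors in a complex with Tal1 and Ldb1. It lay at 56.5, 37.1 and 82.4 CPM in the wild type and 113, 75.5 and 57.1 CPM in the knockout. The groups overlapped, library 3 of the wild type being above libraries 2 and 3 of the knockout. The log2 fold change was 0.48 (SE 0.36, 95% interval -0.35 to 1.31, adjusted p = 0.347, edgeR). Without knockout library 1 the log2 fold change was 0.18, and without wild-type library 2 it was 0.23. Erythroid markers summed to 6797 to 14840 CPM in the wild type and 122 to 646 CPM in the knockout. Megakaryocyte and platelet markers summed to 102 to 169 and 1921 to 2528 CPM. Most of this second sum was Itga2b, at 88.0 to 146 CPM in the wild type and 1788 to 2330 CPM in the knockout. Of the 8 tested, 6 were higher and 1, Vwf, was lower (log2 fold change -2.06, adjusted p = 0.0327, edgeR). The part of these lineages in the Cbfa2t3 levels was not tested. Antisense gene Gm10612, which overlaps Cbfa2t3 exons, reached at most 34 counts.

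To compare genes with each other, the CPM of each was divided by the length in kb of all its annotated exons together. A single transcript can be shorter than this, so the level of a gene may be understated. On this scale Cbfb was the most abundant of the 7 genes in both groups, at 48.1 CPM per kb in the wild type and 34.3 ± 5.13 in the knockout (SD, n = 3). In the wild type Runx1 followed at 12.7, then Runx3 at 7.72 and Cbfa2t3 at 7.01 CPM per kb, the last pair overlapping between libraries. Runx2 at 1.72, Cbfa2t2 at 1.61 and Runx1t1 at 1.49 CPM per kb came last and overlapped each other. In the knockout Runx1t1 stood at 17.4 ± 8.53 CPM per kb. Next to it were Runx1 at 18.3 ± 6.50 and Runx3 at 14.9 ± 1.88 CPM per kb, and Cbfa2t3 at 9.76 ± 3.38 and Runx2 at 7.84 ± 4.01 came after. From Runx1 to Runx2 each gene overlapped the next in this order, so the order inside that range is not settled by 3 libraries. Cbfa2t2 was last at 1.07 ± 0.124 CPM per kb, below all Runx2 libraries. If AE9a reads were counted, the exon length of Runx1 and Runx1t1 would not be that of the transgene.

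In the ETO family Cbfa2t3 held the largest share in each wild-type library and Runx1t1 in each knockout library. The level of the 3 ETO genes together, per kb, was 9.09, 7.76 and 13.4 CPM in the wild type and 40.3, 27.9 and 16.6 CPM in the knockout. Runx1t1 made up 8.94, 17.9 and 16.9% of it in the wild type and 64.1, 63.4 and 52.9% in the knockout. Cbfa2t3 went from 68.1 ± 9.62% to 35.6 ± 4.79% (SD, n = 3) and Cbfa2t2 from 17.3 ± 7.54% to 4.28 ± 1.79%. None of these shares overlapped between the groups, and each share depends on the others since they sum to the whole.

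The 3 Runx genes together stood at 20.5, 25.7 and 20.2 CPM per kb in the wild type and 39.1, 48.9 and 35.3 in the knockout, again without overlap. Runx1 made up 57.4 ± 3.81% of this sum in the wild type and 44.2 ± 11.4% in the knockout (SD, n = 3). Runx2 made up 7.52 ± 3.08% and 19.3 ± 10.5%, with 31.4% in knockout library 1. Runx3 kept an overlapping share, at 35.0 ± 3.26% and 36.5 ± 1.59%. Cbfb binds any of the Runx proteins, so its level was set against their sum. The ratio was 2.45, 1.98 and 2.14 in the wild type and 0.733, 0.728 and 1.09 in the knockout. On this scale Cbfb exceeded the summed Runx genes in each wild-type library, and in 1 of the 3 knockout libraries. The ratio depends on the exon lengths used, 3480 bases for Cbfb and 12025 for Runx1. Before division by length, the wild-type means were 168 CPM for Cbfb, 152 CPM for Runx1, 15.2 CPM for Runx2 and 38.6 CPM for Runx3. Without that division, Cbfb lay below the summed Runx genes in every library. These sums and shares are descriptions, with no test.

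**Figure D3:**
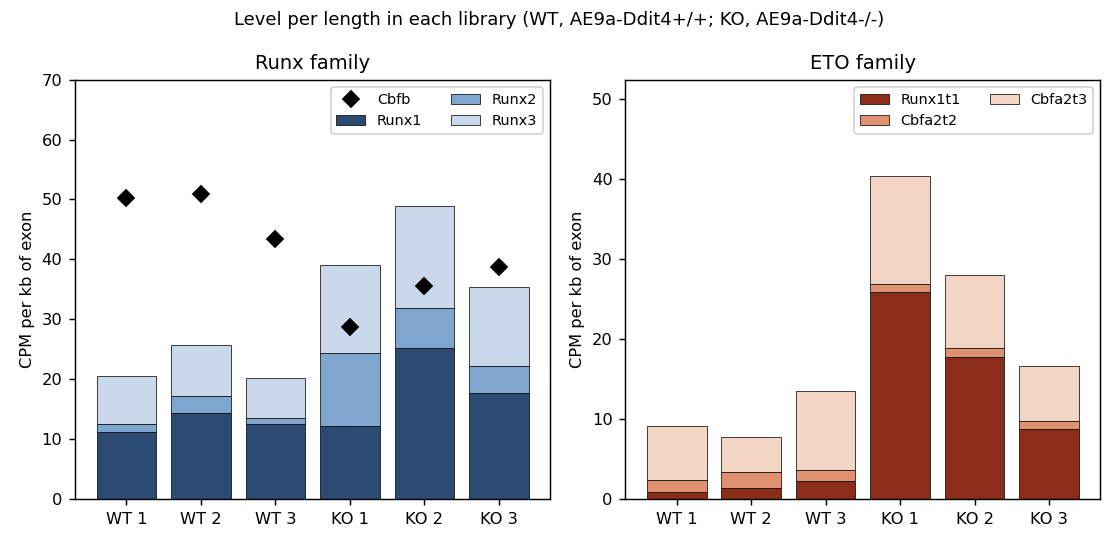
Bars stack the level per length, in CPM per kb of exon, of the Runx genes on the left and the ETO genes on the right in each library, with black diamonds for Cbfb. The wild-type bars of the ETO family are mostly Cbfa2t3 and the knockout bars mostly Runx1t1, and the Cbfb diamond stands above the Runx bar in the wild-type libraries and in knockout library 3.

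The ratio of Runx1t1 to Runx1 is given as a description. Runx1t1 per kb was 7.30, 9.65 and 18.2% of Runx1 per kb in wild-type libraries 1 to 3. In the knockout libraries it was 212, 70.4 and 49.6%. Knockout library 1, with the highest Runx1t1, had the lowest Runx1 of its group, and this library also had the highest Runx2 and Cbfa2t3 and the lowest Cbfb. The mean log2 ratio was 3.06 higher in the knockout. An exact two-sided permutation test on 3 against 3 libraries cannot go below p = 0.1, the value it gave, so it says nothing beyond the groups not overlapping. With a library left out the difference was 2.44 to 3.49.

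The partners through which these proteins act were followed in 3 lists. Over all genes tested, 19.4% were higher and 10.7% lower, and these shares stand beside the counts of these and the later lists. No list was tested as a set. Of 9 corepressors and deacetylases bound by ETO proteins, 0 were higher and 1 was lower in the knockout. This was Gps2, a subunit of the nuclear receptor corepressor complex, which went from 84.9, 110 and 103 CPM to 54.5, 46.9 and 63.0 CPM (log2 fold change -0.86, SE 0.20, adjusted p = 0.0156, edgeR). Ncor1, at 228 to 270 CPM over all libraries, overlapped (log2 fold change 0.04, adjusted p = 0.879). The other 7 did not pass, Hdac1, Hdac2, Hdac3 and Sin3a among them. The median of the list was -0.29, beside 0.04 for all genes tested. For well-expressed genes, with average log2 CPM above 4, the median was -0.17.

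Of 11 genes of the E-protein and Ldb1 complexes in which ETO proteins sit, 1 was higher and 3 were lower. Tcf4 (E2-2), an E-protein of plasmacytoid dendritic cells and B cells, rose from 1.42 to 6.70 CPM in the wild type to 44.3 to 68.4 CPM in the knockout (log2 fold change 3.85, adjusted p = 0.00281, edgeR). The other E-protein genes lay lower in the knockout: Tcf12 (HEB), an AML1-ETO partner, fell by 0.53 on the log2 scale (adjusted p = 0.0425), and Tcf3 (E2A) stood at a log2 fold change of -0.54 and did not pass (adjusted p = 0.0666). Lmo2, the adaptor of the complex, fell by 1.62 on the log2 scale (adjusted p = 0.0201), and Gfi1b, a repressor of erythroid and megakaryocyte genes, fell by 1.36 (adjusted p = 0.00799). Tal1, Ldb1 and Gata1, the core to which Cbfa2t3 is tied, did not pass, with log2 fold changes of 0.15, 0.15 and -0.08. The list median was -0.08. These erythroid factors stand beside the erythroid markers named above, and the part of that lineage was not tested.

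Of 17 cofactors and DNA-binding partners of Runx proteins, 3 were higher and 1 lower. Erg, an ETS factor of stem cells, megakaryocytes and endothelium, rose from 1.44, 1.53 and 2.23 CPM to 106, 78.4 and 115 CPM (log2 fold change 5.84, SE 0.31, adjusted p = 0.000129, edgeR). Gata2, a stem and progenitor cell factor, rose from 123 to 178 CPM to 501 to 613 CPM (log2 fold change 1.94, adjusted p = 0.000869). Ep300, an acetyltransferase that Runx1 recruits, rose by 0.83 on the log2 scale (adjusted p = 0.0178). Tle1, a Groucho corepressor that Runx proteins bind through their C-terminus, went from 25.5 to 32.4 CPM down to 3.44 to 5.85 CPM (log2 fold change -2.70, adjusted p = 0.00108). The ETS factors Fli1 and Ets1 overlapped, and so did Spi1 (PU.1) and Cebpa. The list median was 0.10. Endothelial markers moved with Erg: all 5 that were tested were higher, their sum running from 2.65 to 6.27 CPM in the wild type and 339 to 409 CPM in the knockout, with Tie1 and Pecam1 making up most of it and Emcn at 0 in the wild type and at most 0.527 CPM in the knockout. The part of these cells in the Erg result was not tested.

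**Figure D4:**
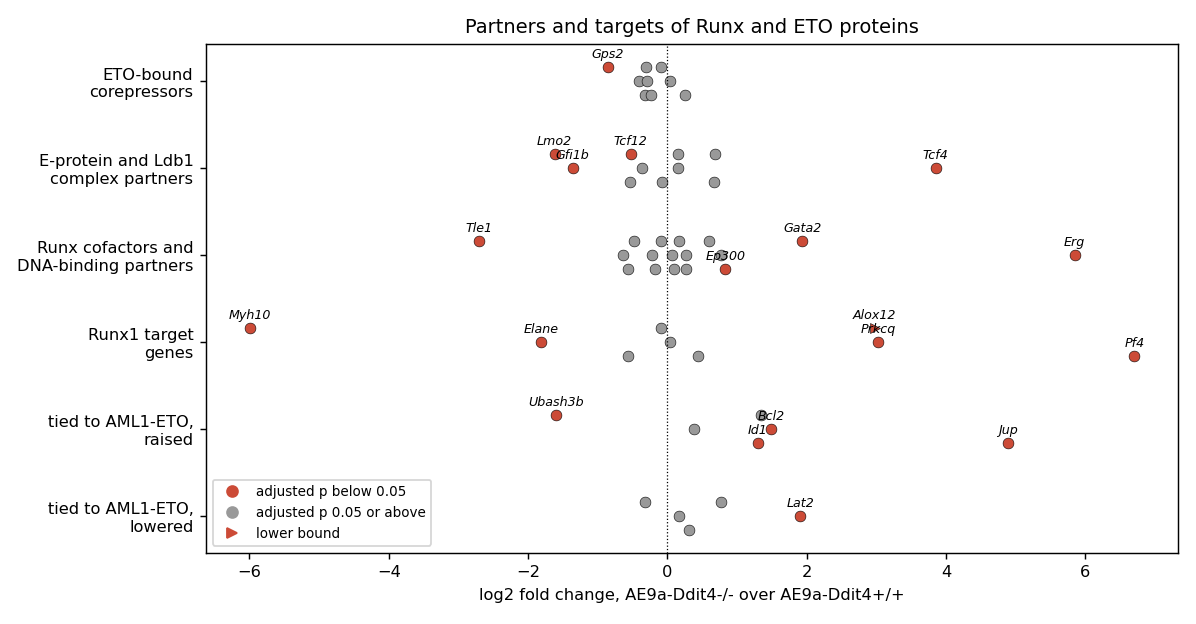
Each point is 1 gene tested of 6 lists of partners and targets, the horizontal axis giving the log2 fold change of the knockout over the wild type, in red and named where the adjusted p was below 0.05, and a triangle for a lower bound where all wild-type libraries were at 0. The corepressors lie close to 0 apart from Gps2, while Erg, Tcf4 and Tle1 lie far from 0 in the partner lists.

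Targets of these factors moved in both directions. Of 12 Runx1 target genes, 9 were tested, 3 being higher and 2 lower. Among the targets that rose, Pf4 and Alox12 are known from megakaryocytes and platelets. Pf4, a platelet chemokine, rose from 0.459 to 1.11 CPM to 51.2 to 113 CPM (log2 fold change 6.70, adjusted p = 0.000293, edgeR). Alox12, the platelet lipoxygenase, was at 0 in the wild type and 1.42 to 1.47 CPM in the knockout, at least 7.87-fold higher against a limit of 12 counts per library, and Prkcq, a protein kinase C of T cells and platelets, rose by 3.02 on the log2 scale (adjusted p = 0.00412). Myh10, which Runx1 silences as megakaryocytes become polyploid, went from 157 to 270 CPM down to 2.27 to 4.12 CPM (log2 fold change -5.99, adjusted p = 0.000177). Elane, neutrophil elastase, fell by 1.82 on the log2 scale (adjusted p = 0.0413), although its groups overlapped. The list median was 0.04, the same as that of all genes tested to 2 decimals.

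A further pair of lists held genes tied to AML1-ETO in leukemia. Of 7 genes that the fusion is known to raise, 6 were tested, 3 being higher and 1 lower, with a median of 1.32. Jup, plakoglobin of cell junctions and Wnt signaling, rose from 1.36 to 2.79 CPM to 47.5 to 68.8 CPM (log2 fold change 4.89, adjusted p = 0.000293, edgeR). The antiapoptotic gene Bcl2 and the helix-loop-helix inhibitor Id1 were higher as well, by 1.49 and 1.30, and Ubash3b, a phosphatase of signaling receptors, was lower, by -1.60. Pou4f1, a neuronal factor that marks this leukemia in patients, stayed at 0.147 to 0.610 CPM over all libraries and did not pass (log2 fold change 0.38, adjusted p = 0.718). Of 5 genes that the fusion is known to lower, 1 was higher and 0 lower, with a median of 0.31. This was Lat2, an adaptor of immune receptor signaling, which went from 21.8 to 29.8 CPM to 89.7 to 103 CPM (log2 fold change 1.91, adjusted p = 0.000811).

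B cells use Tcf4, and all 5 B cell markers were higher in the knockout. Their sum was 0.836 to 4.35 CPM in the wild type and 51.8 to 107 CPM in the knockout. Ms4a1, which encodes CD20, was at 0 in the wild type and 1.04 to 4.54 CPM in the knockout, and Pax5, the B lineage factor, was at most 0.269 CPM and 3.97 to 12.7 CPM. The part of B cells in the Tcf4 result was not tested.

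The genes with the pattern most like each gene that rose were sought among genes of average log2 CPM of 1 or more, by the root mean square difference of centred log2 CPM over the 6 libraries. Nearest to Runx1t1 were Car9, a carbonic anhydrase induced by hypoxia, Shank3, a scaffold protein best known from synapses, and Gdf15, a stress-induced cytokine, with differences of 0.291, 0.305 and 0.328 log2 units. Nearest to Runx2 were Tlr7, an endosomal RNA receptor, the GTPase regulator Dab2ip and the BMP signaling inhibitor Smad6, with 0.108, 0.194 and 0.212. Nearest to Runx3 were Swap70, a signaling protein of B and mast cells, the sorting nexin Snx4 and Parp14, with 0.0804, 0.0884 and 0.0903. Of these genes Shank3 had the highest mean in the knockout, at 621 CPM beside 70.8 CPM in the wild type. With 6 libraries in 2 well separated groups, many genes can come this close.

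**Figure D5:**
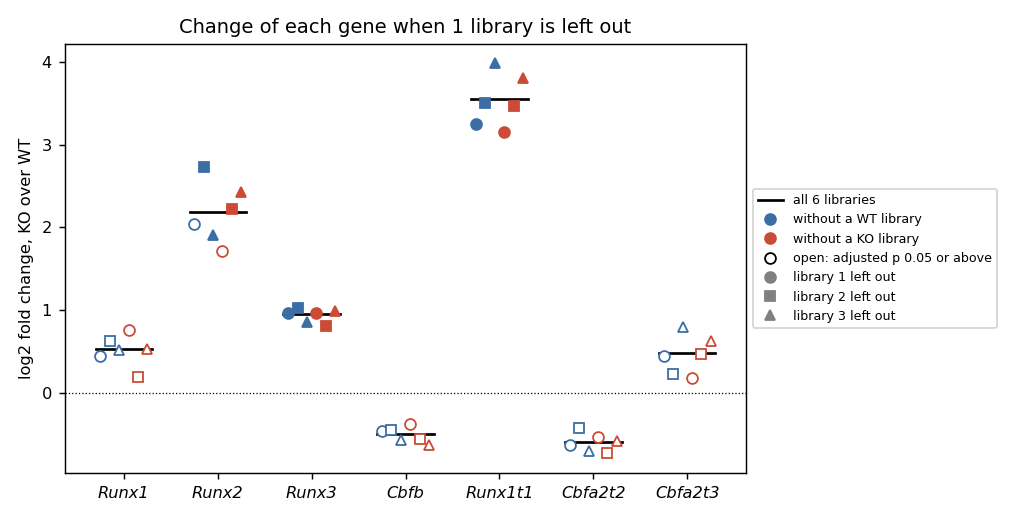
The vertical axis gives the log2 fold change of the knockout over the wild type for each gene, the black line with all 6 libraries and each marker with 1 library left out, blue for a wild-type and red for a knockout library, the shape giving its number and an open marker an adjusted p of 0.05 or above. Runx1t1 (3.15 to 3.98) and Runx3 (0.81 to 1.02) keep filled markers throughout, Runx2 has 2 open ones, and Runx1 drops to 0.20 without knockout library 2.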

How the data were processed

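RNA sequencing was performed by the authors on 6 libraries, and 1 table of counts per gene was deposited, whole numbers that had not been scaled. The labels name GRCm38 (mm10). The aligner, the counting tool and the use of strand are not given in the sources used here. The labels name an mRNA kit and the study's methods a directional kit for rRNA-depleted RNA. The values 4, 8 and 12 occurred more often than 2, 6 and 10, by a factor of 1.40 to 1.62 in the libraries, so the number of fragments behind a count is not known. A limit of detection was set at 12 counts (3 fragments of 4 counts each), which is 0.163 to 0.198 CPM and covers no more than counting error, because no molecular identifiers tell copies from molecules.

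The titles of the samples gave group and replicate number. Counts were tested with edgeR 4.0.16 in R 4.3.3 (filterByExpr, TMM factors of 0.921 to 1.05, quasi-likelihood F-test, Benjamini-Hochberg adjustment over 18375 genes), and the fit was tested on simulated data. CPM are counts per 1000000 of the TMM-scaled total. Gene positions and exon lengths came from GENCODE M21 on GRCm38, with which 55240 identifiers matched, and promoter windows (250 bases before to 50 after the start) from RefSeq on GRCm38.p6. Alternatives were other scalings and filters, removal of mitochondrially encoded genes, DESeq2 1.42.0, counts divided by 4, a stricter threshold, leaving out each library and a replicate block. No within-group pair of libraries agreed within sampling noise (chi-square per degree of freedom 148 to 307).

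The 7 genes and all lists of partners, targets and markers were chosen with earlier results of these data known, and some list genes are not reported here and were left out of the counts of their lists. Named were the 7 genes, Ddit4, overlapping genes, from each list up to 2 of the largest rises and falls past the threshold and direct partners of a named gene, and for each of the 7 genes past the threshold the 3 nearest patterns (pseudocount of 0.5 CPM). Other names in the text, among them the single markers, were chosen after their values were seen.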

Additional observations from a re-analysis of the deposited data

How the results depend on the processing

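Over the 15 alternatives run, 2 to 3 of the 7 genes were higher and 0 lower, and each of the 7 genes kept its direction. Runx1t1 and Runx3 stayed past an adjusted p of 0.05 in all 15, with adjusted p of 2.33e-11 to 0.0276 and 7.06e-05 to 0.0430, and Runx1, Cbfb, Cbfa2t2 and Cbfa2t3 passed in none, the lowest adjusted p being 0.0547 for Cbfb. Runx2 lost its call without AE9a-Ddit4+/+ replicate 1 (2.05, adjusted p = 0.0585), without AE9a-Ddit4-/- replicate 1 (1.71, adjusted p = 0.0509) and at an adjusted p below 0.01 (2.19, adjusted p = 0.0158), with adjusted p of 9.38e-05 to 0.0585 over all alternatives, and leaving out single libraries gave 1.71 to 2.72. The causes were not tested. Of all genes, 3560 were higher and 1975 lower. At an adjusted p below 0.01 these were 1964 and 712, with at least 10 counts in every library 2341 were higher, with DESeq2 4348 and 2749 were called, and leaving out single libraries gave 2683 to 3943 higher and 1089 to 2078 lower, with 1168 lower without wild-type library 1, 1089 without wild-type library 3 and 1157 without knockout library 1. With the replicate block the counts were 2177 and 787, and the adjusted p was 0.0276 for Runx1t1, 0.0302 for Runx2 and 0.0415 for Runx3. Libraries of the same number did not deviate together (correlations of -0.194 to -0.0495). Deviations from means of 3 libraries cannot settle whether the numbers pair them. The depth of fragments is not known, and 3 libraries per group limit what the spread can show.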
